A study of Mus musculus with 30 samples.

Results

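Mice injected with saline on a fixed schedule and mice injected with saline on an escalating schedule form the vehicle groups of a study of morphine regimens. They make up 7 of the 30 RNA libraries of the series: 4 libraries of fixed saline, numbered 3 to 6, and 3 of escalating saline, numbered 7 to 9. They were chosen from the treatment and regimen labels and not from any measured value. Each library was made from cells selected on CD11b from the lumbar spinal cord of C57BL/6J mice, after perfusion with cold PBS and magnetic removal of myelin. The labels give no morphine to either group, so the groups share strain, tissue, selection and vehicle and differ by the label of the regimen. The morphine groups that these controls were made for have 4 libraries (fixed) and 3 libraries (escalating), and 2 further libraries came from naive mice without injection. The labels give no number, volume or timing of injections, no age or sex, no date or batch, and do not say whether a library is 1 mouse or a pool. The p-values below therefore measure the spread between these libraries, and the regimen and any difference in handling between the groups cannot be told apart.

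Microglia are the resident macrophages of the spinal cord. In the undisturbed cord they survey the tissue and express a homeostatic set of genes such as P2ry12, a purinergic receptor that senses ATP and ADP, Tmem119 and Cx3cr1, the fractalkine receptor. Repeated handling and injection can raise glucocorticoids and alter immune genes, which is why a drug regimen is usually compared with a vehicle given on the same schedule. CD11b is carried by microglia and also by neutrophils and monocytes, so a CD11b selection can contain all of them.

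The 7 libraries differed in depth, in the amount of neutrophil RNA and in how their values followed the base composition of transcripts. FPKM are fragment counts scaled by transcript length and by the fragments mapped in the library, so low values move in steps of 1 fragment. The size of that step gave an estimate of 1970000, 2390000, 4980000 and 8590000 fragments for fixed saline 3 to 6. For escalating saline 7 to 9 it gave 7450000, 8740000 and 11300000 fragments (two-sided exact permutation p = 0.114). With 4 against 3 libraries the exact permutation test has 35 arrangements and cannot give less than p = 0.0571. Genes at 1 FPKM or more numbered 9694 to 9987 in the fixed and 9215 to 9808 in the escalating libraries. On the log2(FPKM + 1) scale, Pearson's r between pairs of libraries, across genes, was 0.906 to 0.951 within fixed saline (6 pairs), 0.857 to 0.924 within escalating saline (3 pairs) and 0.873 to 0.952 between the groups (12 pairs), and the 3 ranges overlapped. Escalating saline 9 stood apart on the first principal component, at 69.8 against -25.7 to 2.54 for the other 6 libraries, a component that held 31.4% of the variance. Its neutrophil markers summed to 65820 FPKM, against 7762 to 29840 in fixed saline and 8533 and 16120 in escalating saline 7 and 8. Most of the sum in library 9 was S100a8 and S100a9, at 30880 and 20750 FPKM. By the mean log2(FPKM + 1) of the 17 tested markers, library 9 and fixed library 6 were nearly level, at 9.02 and 9.00. Microglial transcripts were abundant in every library, with the 25 homeostatic genes summing to 73930 to 104000 FPKM. Where leaving out library 9 moved a printed difference or list median by over 1.5 times, the value without it is given too.

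**Figure D1:**
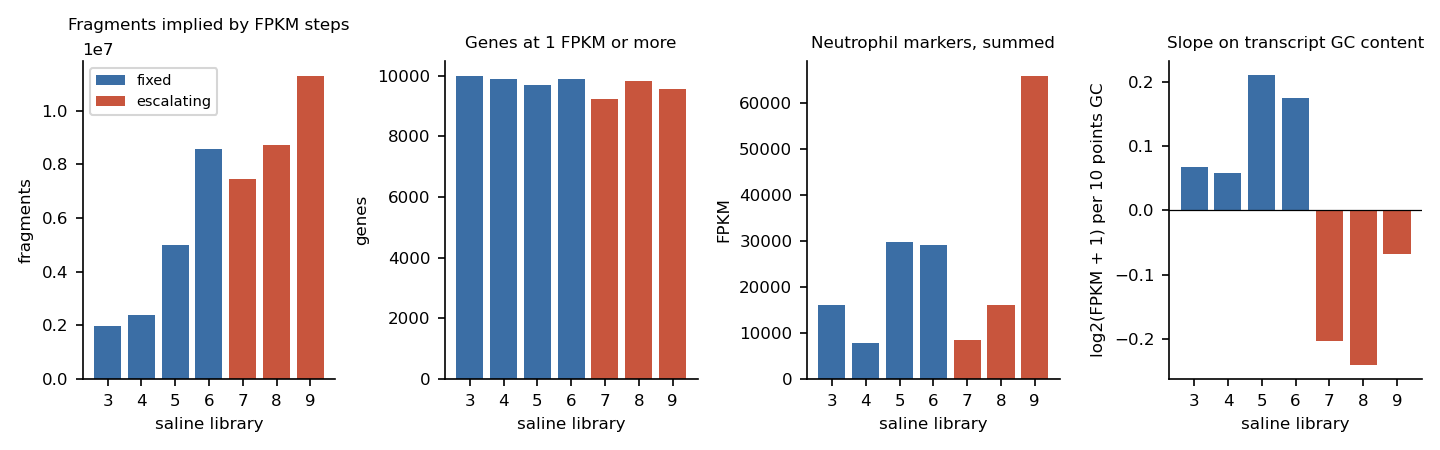
Bars give, for each saline library (3 to 6 fixed, blue; 7 to 9 escalating, red), the fragments implied by FPKM steps, the number of genes at 1 FPKM or more, the summed FPKM of 17 neutrophil markers, and the slope of the library's deviation from the 7-library mean on transcript GC content (log2 per 10 points of GC). Fixed libraries 3 and 4 are the shallowest, and escalating library 9 has the highest sum of neutrophil markers. The GC slope is above 0 in all 4 fixed and below 0 in all 3 escalating libraries.

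Of 10164 genes with at least 1 FPKM in at least 3 of the 7 libraries, 0 were called between the regimens by limma at a Benjamini-Hochberg adjusted p under 0.05 (0% of those tested). The unadjusted p was under 0.05 for 935 genes (9.2%), of which 238 were higher (2.34%) and 697 lower (6.86%) in escalating saline. Genes without any overlap between the 4 and the 3 libraries numbered 303 higher (2.98%) and 730 lower (7.18%). The median difference over all genes was -0.13 on the log2(FPKM + 1) scale, escalating minus fixed, and 37.2% of genes had a positive difference. Scaling by quantiles or by median ratios moved that median to 0.0015 and -0.024, so differences of single genes and lists are best read against -0.13. The median standard error of a gene's difference was 0.34 on the same scale, which is the precision that 4 against 3 libraries gave.

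Since no gene passed the adjusted threshold, the 10 genes with the lowest p-values in each direction and a mean level of 5 FPKM or more in 1 of the groups are described, none of which passed it (adjusted p = 0.458 by limma for all 20). In all 20 the fixed and escalating libraries did not overlap, which is no separate support since low p-values picked them. Among the 10 higher in escalating saline, Ptges3, the p23 co-chaperone of HSP90, had the lowest p-value. Its values were 26.5, 29.2, 26.03 and 25.3 FPKM in the fixed and 65.6, 52.3 and 59.6 FPKM in the escalating libraries, a difference of 1.11 ± 0.21 (SE; unadjusted p = 0.00028). The 4 fixed libraries lay within a few FPKM of each other and each escalating library lay well above them. Rap1a, a small GTPase that acts in cell adhesion, was at 26.9, 27.7, 24.1 and 32.6 FPKM and at 48.8, 60.1 and 65.2 FPKM, a difference of 1.03 ± 0.22. Eif3e, a subunit of translation initiation factor eIF3, was at 32.9, 40.8, 27.6 and 31.3 FPKM in fixed and 77.8, 56.04 and 69.8 FPKM in escalating saline. Both genes were lowest in fixed library 5, and the groups were again apart.

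Clec7a encodes Dectin-1, a pattern-recognition receptor for beta-glucans and a common marker of activated microglia. It was at 14.2, 11.2, 9.10 and 17.7 FPKM in the fixed and 26.1, 27.9 and 48.1 FPKM in the escalating libraries, a difference of 1.30 ± 0.31 (unadjusted p = 0.0015). Library 9 was the highest, and without it the difference was 1.03 (unadjusted p = 0.0069). The remaining higher genes were Lypla1, an acyl-protein thioesterase, Dynlt3, a dynein light chain, Uba3, the catalytic subunit of the NEDD8-activating enzyme, Cacybp, the calcyclin-binding protein, the zinc finger gene Zfp951 and 2610301B20Rik. Uba3 was at 8.30, 5.69, 6.91 and 8.03 FPKM against 16.2, 15.4 and 15.5 FPKM, with the 3 escalating libraries nearly equal. 2610301B20Rik had the largest difference of the 10, 1.61 ± 0.34, at 3.35, 2.36, 1.61 and 2.58 FPKM against 11.6, 5.78 and 12.2 FPKM. Over these 10 genes the differences ran from 1.01 to 1.61.

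The 10 genes lower in escalating saline were led by Lars2, the mitochondrial leucyl-tRNA synthetase. Its values were 175, 278, 133 and 61.6 FPKM in the fixed and 33.8, 26.1 and 34.4 FPKM in the escalating libraries, a difference of -2.15 ± 0.42 (unadjusted p = 0.00038). The fixed libraries were widely spread while the escalating ones were close together, and the naive libraries held far more, 3202 and 2163 FPKM. Basp1, a membrane-bound signalling protein, was at 27.6, 46.9, 43.3 and 25.2 FPKM against 11.5, 12.8 and 13.1 FPKM. Arl10, an ARF-like GTPase, was at 28.5, 14.7, 43.4 and 45.3 FPKM against 8.94, 5.51 and 7.86 FPKM, a difference of -1.91 ± 0.38. For Arl10 the naive libraries, at 3.49 and 10.4 FPKM, were nearer to the escalating group.

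Rhob, a small GTPase that is induced early after many stimuli, was at 138, 124, 184 and 115 FPKM in fixed and 83.96, 49.97 and 51.3 FPKM in escalating saline, a difference of -1.19 ± 0.26 (unadjusted p = 0.00093). Tnfrsf13b, the receptor TACI for the cytokines BAFF and APRIL, was at 12.2, 11.6, 20.03 and 12.1 FPKM against 5.17, 5.14 and 5.31 FPKM, with 1 fixed library, 5, well above the other 3. The other lower genes were Sssca1, Bag6, a chaperone for membrane proteins, Ddrgk1, an adaptor of the UFM1 conjugation system, Anp32a, an acidic nuclear phosphoprotein, and Aup1, a protein of lipid droplets and of endoplasmic-reticulum-associated degradation. Aup1 had the smallest difference of the 10, -0.91 ± 0.21, at 104, 94.8, 119 and 117 FPKM against 50.2, 66.2 and 55.95 FPKM. Of the 20 genes, the 2 naive libraries lay on average nearer to fixed than to escalating saline for 5 of the 10 higher and 5 of the 10 lower genes. Without escalating library 9, all 20 kept their direction and an unadjusted p under 0.05, with differences of 0.93 to 1.49 for the higher and -0.89 to -2.21 for the lower genes. The remaining libraries had a part in picking these genes, so this is no separate support.

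**Figure D2:**
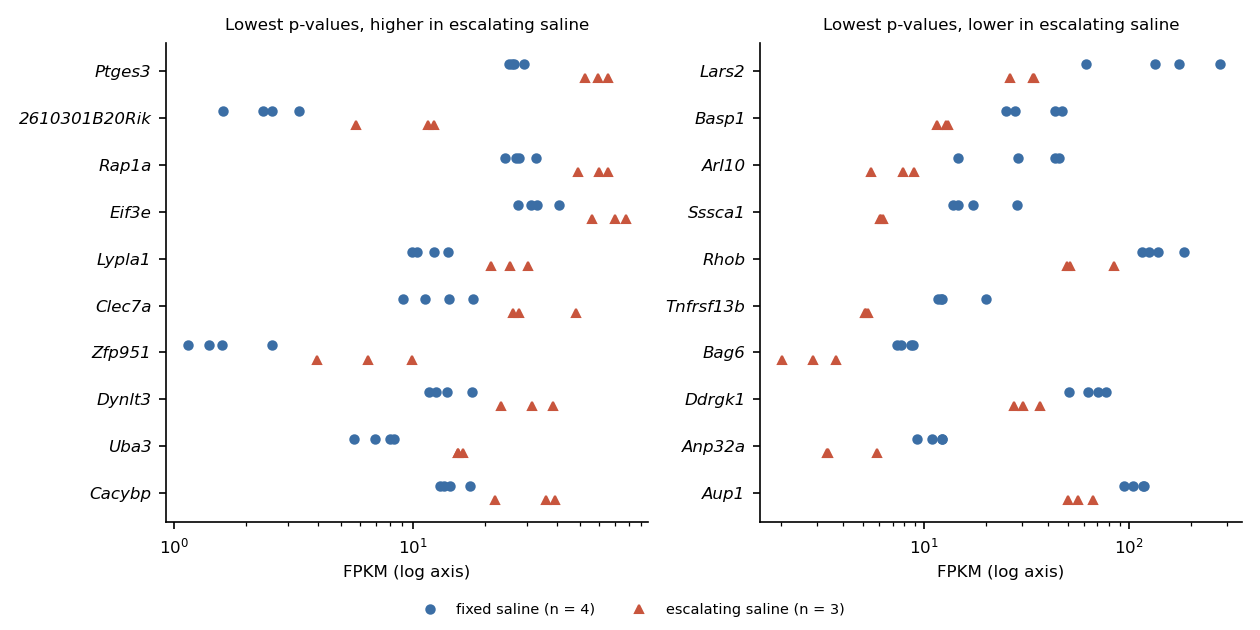
Points are FPKM on a log axis in each of the 4 fixed saline libraries (blue circles) and 3 escalating saline libraries (red triangles), for the 10 genes with the lowest p-values in each direction. No gene's groups overlap, from Ptges3 (25.3 to 29.2 against 52.3 to 65.6 FPKM) to Aup1 (94.8 to 119 against 50.2 to 66.2 FPKM), and none passed the adjusted threshold.

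The 2 sets of 10 genes differed in base composition. By the longest GENCODE M21 transcript of each gene (mouse build GRCm38), the higher genes had a median GC content of 40.5% (36.2% to 43.2%) and the lower genes 56.8% (47.7% to 61.5%), against 49.5% over the 9790 tested genes with a transcript. In the coding sequences alone the medians were 42.6% and 59.5%. To show this contrast, the 90 bases in the middle of the coding sequence are printed for the first 3 genes of each set, 5′ to 3′ on the coding strand, with G and C in capitals. Ptges3 lies on chromosome 10, 128058954 to 128077272, plus strand, 2610301B20Rik on chromosome 4, 10874498 to 10899425, plus strand, and Rap1a on chromosome 3, 105727267 to 105801336, minus strand. Lars2 lies on chromosome 9, 123366927 to 123462666, plus strand, Basp1 on chromosome 15, 25363277 to 25413764, minus strand, and Arl10 on chromosome 13, 54575015 to 54581128, plus strand. All 6 stretches are exonic and coding, and their coding positions are 196 to 285 (Ptges3), 268 to 357 (2610301B20Rik), 232 to 321 (Rap1a), 1309 to 1398 (Lars2), 295 to 384 (Basp1) and 319 to 408 (Arl10).
Ptges3: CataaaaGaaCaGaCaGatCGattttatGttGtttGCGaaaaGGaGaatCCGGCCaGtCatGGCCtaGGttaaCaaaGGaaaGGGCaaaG
2610301B20Rik: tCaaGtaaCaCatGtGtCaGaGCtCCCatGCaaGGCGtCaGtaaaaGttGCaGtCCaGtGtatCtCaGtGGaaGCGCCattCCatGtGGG
Rap1a: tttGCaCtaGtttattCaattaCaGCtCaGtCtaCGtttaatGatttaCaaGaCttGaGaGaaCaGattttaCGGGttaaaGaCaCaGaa
Lars2: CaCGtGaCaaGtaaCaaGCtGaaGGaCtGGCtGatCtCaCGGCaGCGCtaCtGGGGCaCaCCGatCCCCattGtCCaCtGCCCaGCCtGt
Basp1: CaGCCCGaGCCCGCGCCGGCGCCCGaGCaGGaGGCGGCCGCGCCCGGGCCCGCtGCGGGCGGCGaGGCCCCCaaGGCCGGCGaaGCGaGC
Arl10: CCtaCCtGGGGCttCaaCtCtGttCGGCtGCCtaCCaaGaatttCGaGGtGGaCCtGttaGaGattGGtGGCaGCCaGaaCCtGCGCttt
The first 3, from genes higher in escalating saline, hold 42.2%, 50% and 33.3% G and C, and the last 3, from genes lower in it, hold 58.9%, 86.7% and 54.4%.

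The same gradient ran through all genes. In the quintile of genes with the lowest transcript GC (31.0% to 43.8%) the median difference was 0.13, and it stepped down over the next 3 quintiles, -0.018, -0.14 and -0.24, to -0.38 in the highest quintile (55.2% to 70.7%). The share of genes with a positive difference went from 62.6% to 16.1% across those quintiles. Of the genes with an unadjusted p under 0.05, 154 higher and 22 lower ones were in the lowest quintile and 7 higher and 323 lower ones in the highest. Across the 9790 genes, which come from the same 7 libraries and are not independent, Spearman's rho of the difference with GC was -0.41, and -0.46 to -0.30 when 1 library at a time was left out. Within quintiles of expression level it was -0.57 to -0.28, and within quintiles of transcript length -0.45 to -0.42. With transcript length itself rho was -0.043.

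Library by library, the slope of the deviation from the 7-library mean on GC content was 0.068, 0.058, 0.21 and 0.18 log2 per 10 points of GC in fixed saline 3 to 6 and -0.20, -0.24 and -0.068 in escalating saline 7 to 9. The groups did not overlap, with means of 0.13 ± 0.076 (SD, n = 4) and -0.17 ± 0.091 (SD, n = 3), and the two-sided exact permutation p of 0.0571 is the smallest this design allows. The naive libraries, set against the same mean, had slopes of -0.19 and 0.015, so 1 of them lay with the escalating and 1 between the groups. In the morphine libraries the regimen difference had a rho of 0.031 with GC. Estimated depth was on average higher in the escalating libraries, with overlap, and its part in this gradient was not tested.

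**Figure D3:**
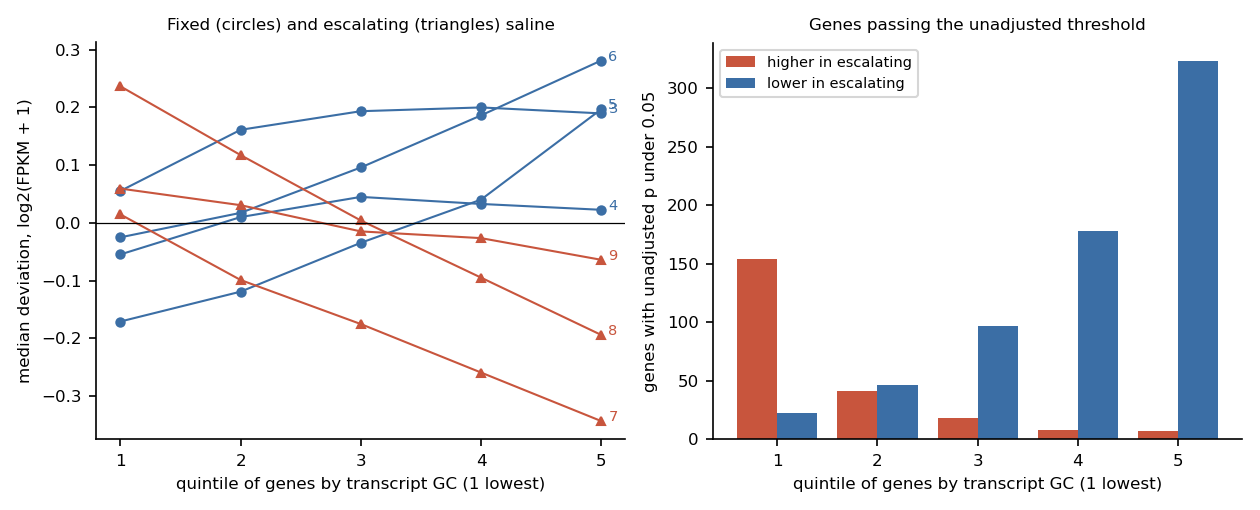
Left, the median deviation of genes from the 7-library mean on the log2(FPKM + 1) scale in quintiles of transcript GC content (1 lowest, 5 highest), 1 line per library, labelled by its number (fixed 3 to 6, blue circles; escalating 7 to 9, red triangles). Right, the number of genes with an unadjusted p under 0.05 that were higher (red) or lower (blue) in escalating saline in each quintile. The escalating lines slope down and the fixed lines end above where they start, and the lower genes climb from 22 in the lowest to 323 in the highest quintile.

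Each library was centred on its own GC trend, an alternative added after these values were seen. Centring took out the library's median deviation in each of 20 GC bins, so the small median difference that remained, -0.0065, follows from the method. It left 534 of 9790 genes at an unadjusted p under 0.05 by limma (5.45%), a share near the threshold itself. All 20 genes described above still had an unadjusted p under 0.05, with differences of 0.80 to 1.55 for the higher and -0.43 to -1.97 for the lower ones. They were picked by their p-values in these same libraries, so this is no separate support. Their adjusted p after centring was 0.858 by limma for all 20. For Ptges3 the difference was 1.05 after centring and for Lars2 -1.97, close to the values above, while for Aup1 it went from -0.91 to -0.43. The medians of the gene lists below are given as deposited and after centring. Their counts of negative differences are as deposited and are best read beside all genes, of which 6379 of 10164 were negative. Centring also takes out the median difference of all genes, -0.13. Whether GC content or that offset turned the sign of a list median was not tested.

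Most homeostatic microglial genes had negative differences, as did most genes tested (6379 of 10164). Of 25 listed and tested, 19 had a negative and 6 a positive difference, the median was -0.24, and 5 reached an unadjusted p under 0.05, all lower and none past the adjusted threshold (6.86% of all genes were lower at that threshold). After GC centring the median was -0.045, and without escalating library 9 it was -0.10. Tmem119, a microglial surface protein with a GC-rich transcript (59.05% GC), was at 1316, 1089, 1388 and 1443 FPKM in fixed and 1009, 933 and 572 FPKM in escalating saline, and its difference of -0.68 ± 0.26 became -0.29 after centring and -0.42 without library 9. P2ry12, whose transcript is GC-poor (38.6%), was at 948, 804, 951 and 1061 FPKM against 1114, 1199 and 860.5 FPKM, a difference of 0.16 ± 0.22 that became -0.055 after centring and 0.30 without library 9. The 2 markers thus had opposite signs as deposited and the same sign after centring.

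Cx3cr1 was at 1406, 1073, 1119 and 1307 FPKM in fixed and 1127, 1282 and 756 FPKM in escalating saline, with overlap and a difference of -0.24 ± 0.25, which was -0.02 without library 9. Cst3, the cysteine protease inhibitor cystatin C and among the most abundant transcripts here, was at 41320, 54110, 65260 and 43670 FPKM against 40840, 43400 and 45930 FPKM, a difference of -0.21 ± 0.32 with overlap. C1qa, a chain of complement C1q, was at 3304, 3535, 4249 and 4744 FPKM and 2080, 2485 and 2429 FPKM, without overlap and with a difference of -0.75 ± 0.24 (-0.27 after centring). So of these 3 abundant transcripts C1qa alone had separate groups, and its difference shrank with centring. Slc2a5, the fructose transporter GLUT5, was at 158, 111, 126 and 148 FPKM against 74.2, 101 and 63.2 FPKM, also without overlap. Selplg, the P-selectin ligand, was at 1300, 1061, 1122 and 1219 FPKM against 847, 773 and 684 FPKM, a difference of -0.61 ± 0.21 that was -0.47 after centring. For Selplg and Slc2a5 (-0.55 after centring) most of the difference was left, for C1qa less.

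The activated microglial genes had 14 positive and 8 negative differences of 22 tested, with a median of 0.052 (0.19 after centring), and Clec7a was the single member at an unadjusted p under 0.05, beside 2.34% of all genes higher at that threshold. That median turned to -0.074 without escalating library 9 and to -0.073 without fixed library 5. B2m, the light chain of MHC class I, was at 2870, 3447, 3714 and 3752 FPKM in fixed and 4587, 4609 and 4582 FPKM in escalating saline, without overlap (difference 0.42 ± 0.23, unadjusted p = 0.098). Cd68, a lysosomal membrane protein of phagocytes, went the other way, 494, 424, 500.3 and 507 FPKM against 364, 395 and 387 FPKM.

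Handling and injection make glucocorticoid-induced, clock and immediate early genes of interest in a comparison of 2 injection schedules. Of 19 glucocorticoid-induced genes tested, 16 had a negative difference, with a median of -0.33 (-0.15 after GC centring), and 1, Cdkn1a, had an unadjusted p under 0.05 and was lower, beside 6.86% of all genes. Fkbp5, a co-chaperone of the glucocorticoid receptor that the receptor induces, was at 30.3, 29.1, 25.3 and 6.60 FPKM in fixed and 18.7, 4.03 and 8.05 FPKM in escalating saline. Fixed library 6 lay with the escalating libraries and escalating library 7 nearer to the fixed ones, so the groups overlapped (difference -1.11 ± 0.56, unadjusted p = 0.074). Tsc22d3, the glucocorticoid-induced leucine zipper, was at 51.9, 47.8, 106 and 52.3 FPKM against 85.2, 32.05 and 32.6 FPKM, a difference of -0.44 ± 0.39 with overlap (-0.21 without library 9). Its highest values were those of fixed library 5 and escalating library 7. Cdkn1a, the cell cycle inhibitor p21, was at 5.31, 5.22, 9.65 and 6.46 FPKM against 4.21, 2.85 and 2.46 FPKM without overlap. Sesn1, of the same list, went the other way, at 39.01, 32, 32.74 and 36.65 FPKM against 44.43, 49.98 and 46.73 FPKM, also without overlap. Its difference of 0.42 ± 0.21 was 0.56 after centring, and that of Cdkn1a went from -0.864 to -0.555. After centring, Sesn1 was the 1 member that limma placed under the unadjusted threshold, and Cdkn1a was not. Neither gene passed the adjusted threshold.

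Of 17 immediate early genes tested, 16 had a negative difference, the median was -0.45 (-0.25 after centring), and 4 had an unadjusted p under 0.05, all lower, beside 6.86% of all genes. They were Rhob, described above, and the AP-1 subunits Jun, Junb and Jund. Jun was at 25.6, 32.1, 42.8 and 34.1 FPKM in fixed and 15.2, 18.4 and 14.1 FPKM in escalating saline, without overlap, a difference of -1.02 ± 0.25 (unadjusted p = 0.0018). Junb was at 69.4, 42.5, 71.6 and 108 FPKM against 41.97, 37.8 and 39.2 FPKM. Each escalating library was below each fixed one for both genes. Fos was at 7.51, 5.16, 6.22 and 3.67 FPKM against 2.62, 2.27 and 7.15 FPKM, and its groups overlapped. The median of this list was negative whichever library was left out, from -0.81 to -0.32, the largest shift being without escalating library 9. The naive libraries, at 70.9 and 73.04 FPKM, were above both saline groups for Jun, and at 70.8 and 97.2 FPKM they were above the escalating group for Junb.

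Clock genes had 13 negative differences of 16 tested and a median of -0.35 (-0.14 after centring, -0.19 without escalating library 9 and -0.18 with quantile scaling). Csnk1e, a kinase of PER proteins, was at 37.4, 37.1, 48.7 and 43.9 FPKM in fixed and 25.7, 23.97 and 29.2 FPKM in escalating saline without overlap, a difference of -0.64 ± 0.22. Tef, a clock-controlled transcription factor, was at 7.72, 8.12, 4.25 and 9.03 FPKM against 2.42, 6.92 and 1.23 FPKM, with escalating library 8 inside the fixed range. These 2 members had an unadjusted p under 0.05, both lower, beside 6.86% of all genes, and without library 9 the difference of Tef, -1.04, was -0.63. Heat shock proteins had 11 positive differences of 15, a median of 0.15 (0.22 after centring, 0.052 without escalating library 9) and 0 members at an unadjusted p under 0.05. When 1 library was left out the median ran from 0.052 to 0.45.

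Inflammatory cytokines and chemokines had 11 negative differences of 19 and a median of -0.14, close to the -0.13 of all genes (-0.18 after centring and -0.38 without escalating library 9). The sign of that median turned without fixed library 6 (0.014), escalating library 7 (0.13) or escalating library 8 (0.05). Nlrp3, the sensor of an inflammasome, was at 11.1, 8.48, 7.82 and 7.76 FPKM in fixed and 3.86, 4.65 and 0.661 FPKM in escalating saline, without overlap, a difference of -1.44 ± 0.42 (unadjusted p = 0.0059) that was -0.89 without library 9. The chemokine gene Ccl4 was at 16.1, 23.3, 49.2 and 27.2 FPKM against 14.8, 18.5 and 13.8 FPKM, where fixed library 3 lay within the escalating range. In the Toll-like receptor pathway 18 of 26 differences were negative, beside 6379 of 10164 over all genes. The median was -0.16, and it was 0.031 without escalating library 9, -0.048 after centring and 0.0098 with quantile scaling. The pair that presents lipopolysaccharide to TLR4 had opposite signs. Cd14 was at 199, 165, 231 and 292 FPKM against 138, 128 and 94.8 FPKM, a difference of -0.86 ± 0.25. Ly96, which encodes MD-2, was at 14.3, 14.5, 23.9 and 8.88 FPKM against 28.2, 35.1 and 32.8 FPKM, a difference of 1.08 ± 0.31. Neither gene's groups overlapped, and both differences kept their sign after GC centring (-0.63 and 0.87).

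Interferon-induced genes had 12 positive and 18 negative differences and a median of -0.056, which turned positive with GC centring (0.076), with quantile or median-ratio scaling, and without fixed library 3 or 6 or escalating library 7 or 8, and was -0.10 without escalating library 9. Ifi35 was at 21.99, 25.7, 39.02 and 58.6 FPKM in fixed and 15.01, 15.6 and 16.7 FPKM in escalating saline, without overlap. Ifi27l2a was at 26.2, 25.1, 40.1 and 28.4 FPKM against 34.04, 48.2 and 115 FPKM, highest in escalating library 9. The 2 genes, both induced by interferon, had differences of opposite sign, -1.05 and 0.94, and the latter was 0.45 without library 9. MHC genes had 9 negative differences of 15, with a median of -0.055 that was 0.23 after centring and turned positive also with quantile, median-ratio and TPM scaling and without fixed library 3 or escalating library 8. Without escalating library 9 it was -0.13. Of the TGF-beta pathway, Tgfb1, a ligand on which microglia depend, was at 11.6, 15.9, 16.6 and 13.4 FPKM against 4.35, 9.85 and 2.71 FPKM, without overlap, a difference of -1.35 ± 0.36 (unadjusted p = 0.0037). Of 16 genes of that pathway, 11 had a negative difference, beside 6379 of 10164 over all genes.

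Among the lists of cell processes, mitochondrial tRNA synthetases had 14 negative differences of 17 and a median of -0.44 (-0.26 after centring), with Lars2, Sars2 and Yars2 at an unadjusted p under 0.05, all lower, beside 6.86% of all genes. That median was -0.21 without fixed library 3, -0.28 without escalating library 9 and -0.17 with quantile scaling. The cytosolic tRNA synthetases had 11 negative of 20, and a median of -0.054, whose sign turned with GC centring (0.15), with each scaling and without 4 of the 7 libraries (fixed 3 or 4, escalating 7 or 8). The difference between these 2 lists was not tested. Cytosolic ribosomal proteins had 35 positive of 53 and a median of 0.15, which was 0.36 after centring (46 of 53 positive), -0.15 without escalating library 9 and -0.017 without fixed library 6. Oxidative phosphorylation subunits had 36 positive of 63, with a median of 0.031 that was 0.22 after centring (50 of 63 positive) and -0.20 without escalating library 9. Without fixed library 3 the oxidative phosphorylation median was -0.0058, so the sign of both medians depended on single libraries.

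Endoplasmic reticulum stress genes had 17 negative differences of 24, beside 6379 of 10164 over all genes. Their median was -0.25 (-0.074 after centring), and it was -0.14 without escalating library 8, -0.15 without escalating library 9 and -0.16 without fixed library 6. The 4 at an unadjusted p under 0.05, all lower, beside 6.86% of all genes, were the sensor kinases Ern1 (IRE1) and Eif2ak3 (PERK), the secreted factor Creld2 and Asns, asparagine synthetase. Eif2ak3 was at 10.8, 6.75, 3.88 and 4.82 FPKM against 2.98, 4.76 and 1.04 FPKM and overlapped in escalating library 8. Cholesterol synthesis had a median of 0.043 (0.15 after centring, 0.013 without escalating library 9), and its isomerase Idi1 was at 3.18, 5.95, 1.68 and 3.05 FPKM in fixed and 8.12, 7.83 and 10.8 FPKM in escalating saline without overlap, a difference of 1.22 ± 0.35 (unadjusted p = 0.0057). Glycolysis genes had a median of -0.076, lysosomal genes -0.14 and cell cycle genes -0.011, beside -0.13 for all genes. Without escalating library 9 these were -0.21, -0.061 and -0.39. All 3 turned sign with GC centring (0.15, 0.024 and 0.082), glycolysis also with median-ratio scaling, and cell cycle also with quantile, median-ratio and TPM scaling. The sign also turned for cholesterol synthesis without fixed library 5 or escalating library 8, for glycolysis without fixed library 3 or escalating library 7, and for cell cycle without fixed library 3 or 6 or escalating library 7 or 8. Of 8 opioid receptor and peptide genes, 1 was expressed enough to test and did not reach an unadjusted p under 0.05.

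Splicing factors held 1 gene whose level was a matter of listed zeros. Clk2, a kinase of SR splicing proteins, was given as 0 in each of the 4 fixed saline libraries and as 4.62, 3.81 and 4.81 FPKM in the escalating ones. No fold is given against a group listed at 0. It passed the filter on low values through the 3 escalating libraries alone, so its tests are given as a description and support nothing. Its adjusted p by limma was 0.0764, and 0.010 to 0.51 over 19 alternatives, of which 6 were under 0.05. Of 10164 genes it was the 1 called for a difference between the regimen differences of saline and morphine (0.00984%), by 3.19 ± 0.44 (adjusted p = 0.026 by limma). That value was 6.33 with a pseudocount of 0.1, and the adjusted p rose above 0.05 when any of 10 of the 14 libraries was left out (up to 0.16). The naive libraries were at 6.84 and 16.6 FPKM, the fixed morphine ones at 16.7, 12.1, 13.2 and 13.7 FPKM and the escalating morphine ones at 15.9, 4.72 and 6.02 FPKM. So fixed saline was the single one of these 5 groups with Clk2 listed at 0, and whether that is an absence of RNA or of an estimate was not tested. Besides Clk2, 3 members of the list had an unadjusted p under 0.05, and none of their groups overlapped (2.34% of all genes were higher and 6.86% lower at that threshold). Srsf10 and Tra2a, 2 splicing regulators with SR domains, had positive differences, at 12.3, 13.6, 11.7 and 15.2 FPKM against 31.5, 18.4 and 19.8 FPKM for Srsf10 and 4.16, 5.69, 4.88 and 4.46 FPKM against 6.59, 8.65 and 15.2 FPKM for Tra2a, whose difference of 0.88 was 0.57 without library 9. Srrm2, a large protein of nuclear speckles with SR repeats, went the other way, at 18.3, 16.9, 21.4 and 16.8 FPKM against 14.9, 12.6 and 8.01 FPKM. Its difference of -0.62 ± 0.27 (unadjusted p = 0.041) was -0.39 without library 9. Over the whole list, 16 of 26 differences were negative, beside 6379 of 10164 over all genes. The median of the list was -0.21 (-0.14 after centring, -0.085 without escalating library 9).

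**Figure D4:**
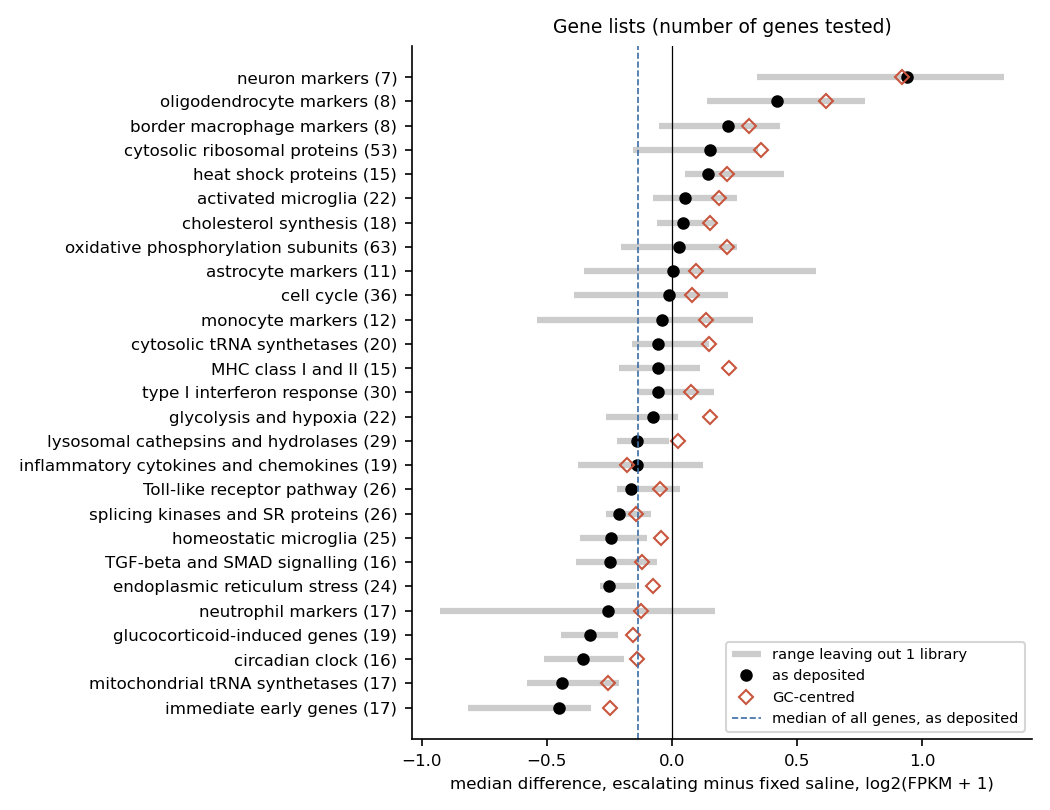
Median difference between escalating and fixed saline on the log2(FPKM + 1) scale for the 27 gene lists with at least 7 tested genes (number tested in brackets), as deposited (black circles) and after GC centring (open red diamonds). Grey bars span the medians when each of the 7 libraries is left out in turn, and the dashed line is the median of all genes, -0.13. Of the 27 lists, 12 lay below the dashed line, 12 kept the sign of their median whichever library was left out, and 7 turned sign with GC centring. Centring also takes out the offset of all genes.

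The change of regimen was compared with the same change under morphine, in libraries that share no sample with these. There, 1 of 10164 genes was called by limma at an adjusted p under 0.05 (0.00984%), Dpm1, a subunit of dolichol-phosphate mannose synthase. It was listed at 0 in all 4 fixed morphine libraries and at 6.62, 3.94 and 4.82 FPKM in the escalating ones, while in saline it was at 5.31, 4.66, 6.23 and 10.8 FPKM (fixed) and 7.92, 7.72 and 9.28 FPKM (escalating). Both naive libraries also listed Dpm1 at 0. The call rests on a group listed at 0 and is given as a description, and whether that is an absence of RNA or of an estimate was not tested. Across the 10164 genes, 5519 had a difference of the same sign under saline and morphine. Most genes had a negative difference in each comparison, under morphine 6928, with 3232 positive (31.8%). Spearman's rho between the saline and the morphine differences was -0.0031. Of the 20 genes with the lowest p-values in saline, 3 of the 10 higher and 5 of the 10 lower ones had the same sign under morphine. Ptges3 had a difference of -0.48 ± 0.39 and Clec7a of -0.09 ± 0.28 under morphine, neither near the saline values of 1.11 and 1.30. Within fixed morphine alone Ptges3 was at 26.6, 57.56, 81.02 and 27.26 FPKM, and in the naive libraries at 46.67 and 38.24 FPKM. Lars2 (-1.04 ± 0.44) and Bag6 (-0.86 ± 0.30) had the sign they had in saline, with unadjusted p-values of 0.044 and 0.019. For none of these 20 genes did the saline difference differ from the morphine difference at an adjusted p under 0.05, the smallest being 0.21.

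Among genes whose mean reached 5 FPKM in 1 of the 4 groups, after Clk2 and Dpm1, the lowest p-values for a difference between the 2 regimen differences were those of Lrrc25, Crlf2 and Wasf2, none past the adjusted threshold. Lrrc25, a leucine-rich repeat protein of myeloid cells, was at 46.2, 29.4, 68.4 and 76.02 FPKM in fixed and 21.03, 26.97 and 25.5 FPKM in escalating saline. Under morphine it was at 11.9, 8.05, 7.99 and 13.1 FPKM and 19.2, 45.1 and 44.4 FPKM. Its groups did not overlap in either case, with opposite signs, and the difference of differences was -2.71 ± 0.49 (adjusted p = 0.18 by limma). Wasf2, which drives branched actin assembly, was at 71.4, 64.1, 63.5 and 63.96 FPKM against 35.4, 42.02 and 27.1 FPKM in saline and 30.1, 31.8, 34.4 and 27.1 FPKM against 34.1, 68.7 and 65.3 FPKM under morphine. For both genes escalating morphine 1 lay nearer to fixed morphine than escalating morphine 2 and 3 did. Estimated depth was 2620000 and 2390000 fragments in escalating morphine 2 and 3, 10800000 in escalating morphine 1 and 10100000 to 16700000 in fixed morphine. Pearson's r of escalating morphine 2 and 3 was 0.889 and 0.887 with escalating morphine 1, and 0.943 to 0.967 with fixed saline 3 and 4. The part of depth in the morphine comparison was not tested. Without escalating morphine 1 the morphine comparison had 2366 called genes in place of 1, so the size of the morphine comparison depends on that library.

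**Figure D5:**
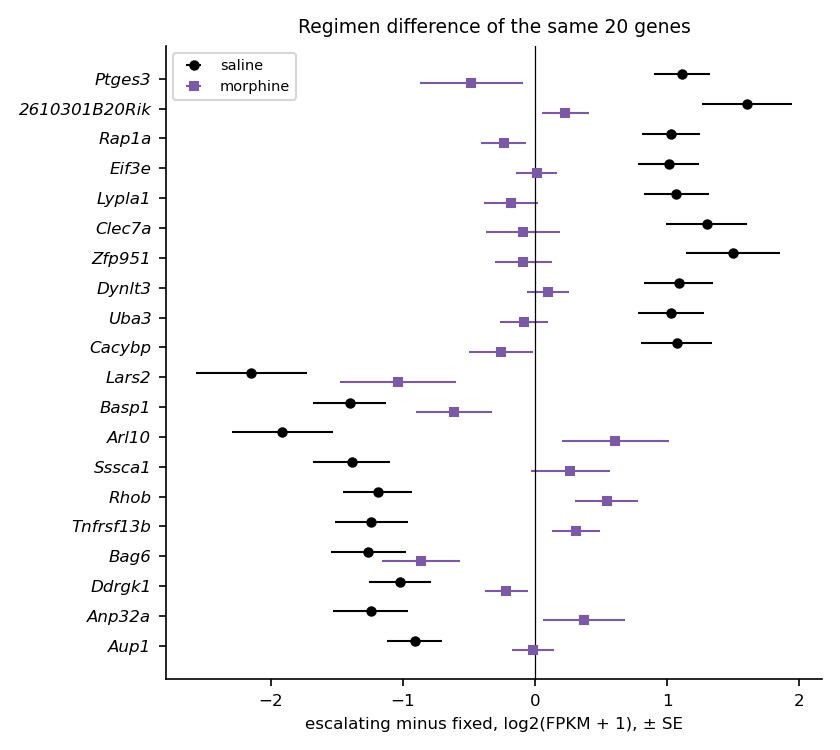
Difference between escalating and fixed regimen on the log2(FPKM + 1) scale, ± SE, under saline (black circles; 4 fixed and 3 escalating libraries) and under morphine (purple squares; 4 and 3), for the 20 genes with the lowest p-values in saline. The saline differences lie at 0.91 or more from 0 on either side, and 3 of the 10 upper and 5 of the 10 lower genes have the same sign under morphine. Of all genes tested, 31.8% had a positive difference under morphine.

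RNA of other cell types was present in both groups and differed widely among libraries of the same regimen. S100a8, a calcium-binding protein of neutrophils, was at 5047, 2927, 14390 and 9707 FPKM in fixed and 3328, 7486 and 30880 FPKM in escalating saline. Elane, neutrophil elastase, was at 48.5, 25.3, 154 and 506 FPKM against 20.5, 41.9 and 106 FPKM, highest in fixed library 6. Of 17 neutrophil markers tested, 14 had a negative difference and 0 an unadjusted p under 0.05, and the median was -0.25, -0.12 after centring, -0.93 without escalating library 9 and 0.17 without escalating library 7. In these bulk libraries fewer cells of a type and less RNA per cell cannot be told apart. Monocyte markers summed to 198 to 916 FPKM in fixed and 234 to 1102 FPKM in escalating saline. Of 12 monocyte markers tested, 6 had a positive and 6 a negative difference. At an unadjusted p under 0.05 by limma 1 was higher and 1 lower, beside 2.34% and 6.86% of all genes. Ccr2, the chemokine receptor of inflammatory monocytes, was at 12.5, 5.62, 3.24 and 10.7 FPKM against 15.1, 13.2 and 18.3 FPKM, without overlap. Its difference was 1.01 ± 0.40 (unadjusted p = 0.029). Fn1 went the other way, at 15.8, 3.475, 3.19 and 8.25 FPKM against 1.32, 5.02 and 0.803 FPKM with overlap. The difference of Fn1 was -1.33 ± 0.56 (unadjusted p = 0.038). Ly6c2, another monocyte marker, was at 146, 70.6, 150.5 and 304 FPKM against 68.4, 115 and 304 FPKM with overlap.

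Neuronal markers summed to 4.22 to 28.1 FPKM in fixed saline and to 10.2, 18.1 and 83.3 FPKM in escalating saline, and all 7 tested had a positive difference, with a median of 0.94 (0.92 after centring) that was 0.34 without library 9. Snap25, a synaptic vesicle fusion protein, was at 3.83, 6.67, 1.04 and 1.37 FPKM against 4.29, 4.71 and 16.2 FPKM. Markers of T and NK cells (14 listed) summed to 11.1 to 37.6 FPKM in fixed and 12.1 to 33.5 FPKM in escalating saline. Most of that was Il7r (8.23 to 12.5 and 5.96 to 22.98 FPKM) and Nkg7 (1.02 to 21.1 and 2.65 to 7.57 FPKM), while Cd3d reached at most 0.705 FPKM and Cd3e, Cd4 and Xcl1 were listed at 0 in all 7 libraries. Endothelial and mural markers (16 listed) summed to 9.54 to 28.8 FPKM and 13.4 to 32.6 FPKM. In fixed libraries 5 and 6 and escalating library 9 most of that was Ly6c1, at 18.28, 21.79 and 22.45 FPKM, against 3.755 to 10.35 FPKM elsewhere. Pecam1 was at 3.68 to 8.06 and 3.90 to 5.99 FPKM, Kdr was above 0 in every library, and 6 members, Cldn5 and Tek among them, were listed at 0 in all 7. A listed 0 alone does not show that a transcript was absent, and whether it is an absence of RNA or of an estimate was not tested. Dpm1, a gene of general metabolism, was listed at 0 in all 4 fixed morphine libraries and in both naive ones. Border macrophage markers summed to 52.9 to 102 FPKM and 55.3 to 67.3 FPKM. Much of that was Stab1, at 27.0 to 58.9 and 18.9 to 28.2 FPKM. Of 8 tested, 7 had a positive difference and 1, Stab1, a negative one. At an unadjusted p under 0.05 by limma Cbr2 was higher (1.61 ± 0.53, without overlap) and Stab1 lower (-0.77 ± 0.29, with overlap). Beside them, 2.34% and 6.86% of all genes were higher and lower. The part of other cell types in the differences above was not tested.

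Leaving out fixed library 4 moved the count of the main comparison from 0 to 4 called genes, all lower in escalating saline. The library left out is the 1 fixed library whose values lay with the escalating group for these genes, and Ear1, Ear6 and Gm21975 passed the filter on low values through the other 3 fixed libraries alone. The 4 calls are therefore given as a description and support no difference between the regimens. They were Ear1, Ear6 and Prg2, which encode ribonucleases and the major basic protein of eosinophil granules, and the gene model Gm21975, and they are named after their values were seen. Ear1 was at 10.1, 0.194, 15.1 and 14.8 FPKM in fixed and 0.432, 0 and 0.228 FPKM in escalating saline. Prg2 was at 23.6, 0, 44.9 and 33.2 FPKM in fixed and 1.92, 0 and 0 FPKM in escalating saline. Fixed library 4 was thus at or near 0, with the escalating libraries, while the other 3 fixed libraries were not. With all 7 libraries the differences were -2.66 for Ear1 and -3.30 for Prg2 (adjusted p = 0.458 and 0.469 by limma). Ear6 was at 6.41, 0, 9.85 and 8.99 FPKM in fixed saline and listed at 0 in all 3 escalating libraries. A further pair of eosinophil granule genes, Epx and Prg3, were below the filter on low values. They were listed at 0 in fixed library 4 and in all 3 escalating libraries and above 0 in the other 3 fixed ones. Ear2, a close relative of Ear1, did not follow them, at 14.8, 5.32, 11.5 and 20.2 FPKM against 6.34, 6.17 and 24.8 FPKM, and Siglecf, a lectin on eosinophils that other myeloid cells also carry, was at 13.1, 11.3, 14.7 and 18.1 FPKM against 10.1, 7.77 and 15.2 FPKM. The Ear genes are closely related copies, and how reads shared between copies were counted is not given in the sources used here, so the values of single Ear genes are uncertain. In naive mice Ear1 was at 4.65 and 1.74 FPKM and Prg2 at 10.6 and 13.7 FPKM, between the low and the high saline libraries.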

How the data were processed

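Per the labels' protocols, RNA of CD11b-selected cells was made into libraries by the Smart-Seq2 protocol (whole-transcript cDNA) and Nextera XT. The deposited table holds FPKM, 1 column per library, for 24888 gene symbols. Build mm10, DESeq2, the aligner HISAT2 (2.0.5.1), featureCounts (1.4.6) and Cufflinks (2.2.1) are named in the submitters' processing notes. The tool behind the FPKM and the annotation are not given in the sources used here. The 826 rows of 281 repeated symbols were left out.

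Differences were fitted on log2(FPKM + 1) with limma 3.58.1 (R 4.3.3; intensity trend, two-sided) on the 7 saline libraries, over 10164 genes with at least 1 FPKM in at least 3 of them, with Benjamini-Hochberg adjustment at 0.05. A fold on this scale understates the change of low genes. Morphine was fitted likewise on its 7 libraries, and the difference of the 2 regimen differences on all 14. The script was tested on simulated data. Transcript length and GC content came from the longest GENCODE M21 transcript, matched for 9790 genes (96.3%).

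Depth was read from FPKM times length in genes with 1 transcript. Between 57.3% and 68.2% of low values of the saline libraries (0.5 to 6.5 fragments) were whole within 0.1, so the depth is an estimate, no counts were recovered, and no counting intervals are given.

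Named genes were the 10 lowest p-values in each direction with a mean of at least 5 FPKM, since none was called, up to 3 members of each of 34 gene lists, 9 genes read always, and the 10 lowest p-values for the difference between saline and morphine. The comparison, the lists and the rules were chosen with earlier results of these data known. Alternatives changed the pseudocount, filter, scaling, weights, libraries fitted and GC centring, and left out libraries.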

Additional observations from a re-analysis of the deposited data

Results flagged for a closer look

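In 66 groups of 4 fixed saline values examined for a library far from the other 3, 5 were found, and chance flags about 1 in 20. Tnfrsf13b was highest in fixed library 5, at 4.39 on the log2(FPKM + 1) scale against 3.72 in the next library. Tsc22d3 was highest in the same library, at 6.74 against 5.74. Fkbp5 was lowest in fixed library 6, at 2.93 against 4.72. For opioid receptor and peptide genes the mean rests on 1 tested gene, Oprm1. Among the fixed libraries that mean was highest in library 4, at 1.16 against 0 in the others. Escalating libraries 7, 8 and 9 were at 1.45, 1.37 and 0. The mean over cholesterol synthesis genes was lowest in fixed library 5, at 2.33 against 2.76.

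The regimen difference of Clk2 differed between saline and morphine, by 3.19 on the log2(FPKM + 1) scale (adjusted p = 0.026 by limma over 14 libraries). The value rests on the 4 fixed saline libraries, in which Clk2 is listed at 0, and was 6.33 with a pseudocount of 0.1. Clk2 passed the filter on low values through the escalating saline libraries alone, and the adjusted p rose above 0.05 when any of 10 of the 14 libraries was left out.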

How the results depend on the processing

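All 20 genes with the lowest p-values kept their direction and stayed short of the adjusted threshold under all 339 alternative values computed for them. They were picked from these same libraries, so the kept direction is no separate support. The count of called genes between the saline regimens was 0 with limma as described. It was 1, each time Clk2, with GC centring, array weights, a filter of 1 FPKM in 2 of 30 libraries, no filter, quantile normalization or a fit of 14 libraries, and 0 to 4 when 1 library was left out, 4 being the count without fixed library 4. All but Prg2 of these called genes passed the filter of 1 FPKM in 3 of 7 libraries only through the libraries where they are high. Genes at an unadjusted p under 0.05 numbered 534 with GC centring, 615 with a filter on a mean of 5 FPKM, where 6294 genes were tested, and 1437 in the fit of 14 libraries. Without the 2 shallowest libraries, fixed 3 and 4, 0 genes were called. The differences of Cst3 and P2ry12, neither past the threshold, turned to 0.13 and -0.055 with GC centring. Of 408 alternative medians of the gene lists, 20 moved by more than the spread between libraries.

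The morphine comparison, with 1 called gene, had 6368 with array weights, 2 with the filter of 1 FPKM in 2 of 30 libraries, 2 with no filter and 0 to 2366 with 1 library left out, the largest without escalating morphine 1. The difference between saline and morphine had 2 called genes with GC centring, TPM rescaling or a pseudocount of 0.1, 788 with array weights, 0 with a mean of 5 FPKM or no filter and 0 to 415 with 1 library left out, the largest again without escalating morphine 1. The cause of these shifts was not tested, and limma warned that the array weights did not fully converge.

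The saline groups share no replicate numbers (3 to 6 against 7 to 9), so no paired fit was possible there. The morphine groups share the numbers 1 to 3, and the deviations of same-numbered libraries correlated at -0.18, -0.019 and 0.11. With so few libraries these correlations cannot show whether same-numbered ones were handled together. With the replicate block 0 morphine genes were called. Depth limits the low genes most, since 1 fragment on 1 kilobase is worth 0.508 FPKM in fixed library 3 and 0.0888 FPKM in escalating library 9.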
